A study of Mus musculus with 2 samples.

Results

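The regions described here are 451 sites of open chromatin that lie at the 3′ ends of protein-coding genes in mouse hippocampus, of 98902 sites listed for the first library and 130199 for the second. Chromatin was probed with DNase-seq, in which the nuclease DNase I cuts DNA wherever it is not packed into nucleosomes, so that short stretches with many cuts mark promoters, enhancers and other bound regions. Both libraries come from female B6CASTF1/J mice, an F1 cross, aged 8 to 10 months, with the tissue given as a layer of hippocampus, untreated as far as the labels say. Each library is a pool of 2 biosamples, and the 2 libraries form 1 group, so there is no comparison between conditions. The labels carry the same donor identifier for both pools and do not say whether the pools hold different animals, so the spread between libraries may be partly technical.

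A site was taken when a peak of replicate 1 on chromosomes 1 to 19 shared 1 bp or more with a peak of replicate 2, its midpoint lay within 500 bp of the 3′ end of a GENCODE M21 protein-coding gene, it was more than 2000 bp from every annotated transcript start, and it was not in coding sequence. The rule uses position and presence in both libraries, not the strength of a site. By position alone 596 peaks of replicate 1 met it, of which 75.7% were shared, and 762 peaks of replicate 2, of which 60.6% were shared. The 451 sites are 0.900% of the 50103 shared peaks that lie away from starts and coding sequence, called distal sites here. They were compared with the other 49652 distal sites, and above all with the 3550 of these that lie 500 to 5000 bp from a 3′ end, which share their gene neighbourhood. The nearest site inside the distance limit was at 500 bp from the end of Fam124a (signal 0.521 and 0.565 in replicates 1 and 2) and the nearest outside at 501 bp from that of Fbxl17 (0.545 and 0.827). At the limit on starts, a site of Ube2j1 at 2046 bp was taken (0.788 and 1.00) and one of Fes at 1996 bp was not (0.733 and 0.747).

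The 3′ end of a gene is where the transcript is cleaved and given its poly(A) tail, downstream of a signal that is commonly written AATAAA, and where RNA polymerase II is then released. DNA around poly(A) sites is rich in A and T. Open sites near gene ends can be enhancers of the same or of another gene, unannotated starts, or places bound by CTCF, the zinc finger protein that holds chromatin loops and domain borders and whose binding motif has a direction.

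The most frequent of the long motifs in these sites was that of CTCF, so the 6 strongest sites with a match are printed, as 30 bases of the reference genome (RefSeq's GRCm38.p6, the mm10 build) read along the strand of the match, with the 14 matched bases in capitals. These are reference letters, not those of the crossed animals.
Thbs4: ccaggcctCCTGTAGGGGGCGCtgtcagct
1700029H14Rik: aatctgaaCCACCAGAGGGCACcatcagac
Dand5: gcttttagCCACTAGGTGGCACcgcgtccc
Acvrl1: cgcattggCCAGCAGAGGGCGAcgtggctg
Ripor1: agctgtcgCCACCAGGGGGCAGcagaactg
Sncb: ctttcctgCCAGGAGGTGGCGCctgatgct

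The Thbs4 sequence is chr13:92751887-92751916 on the plus strand, in an intron and 312 bp inside the gene, measured from the middle of the match. That of 1700029H14Rik is chr8:13551141-13551170, plus strand, in an intron 423 bp inside the gene. The Dand5 sequence is chr8:84815721-84815750, minus strand, in the 3′ UTR 331 bp before the end. The Acvrl1 sequence is chr15:101145554-101145583, minus strand, 233 bp beyond the gene and outside annotated genes. That of Ripor1 is chr8:105622558-105622587, plus strand, 354 bp beyond the gene and in an intron of another gene record. The Sncb sequence is chr13:54758628-54758657, plus strand, 217 bp beyond the gene. The matches of 1700029H14Rik, Dand5 and Ripor1 fit the consensus with 0 mismatches, and the other 3 have 1. All 6 matched stretches lie under a deposited footprint, a short protected stretch within an open site, in both libraries.

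Over the whole 500 bp on either side, open sites were not more frequent near 3′ ends than in the flanks, and they were fewest at the end itself. Counted per Mb of eligible bases (over 2000 bp from starts, outside coding sequence, each base assigned to its nearest 3′ end), the whole 500 bp on either side held 31.9 sites per Mb (95% exact Poisson interval 29.0 to 35.0). On the gene side, the zones from 5000 to 500 bp before the end held 28.3 to 31.9 per Mb, and downstream the zones from 500 to 5000 bp held 32.2 to 37.6. Within 100 bp of the end there were 50 sites, or 17.0 per Mb (12.6 to 22.4), against 36.9 (31.9 to 42.4) in the 400 bp before and 35.0 (30.4 to 40.1) in the 400 bp after. The density within 100 bp was thus 0.473 times that at 100 to 500 bp (exact interval 0.345 to 0.636). The 36.9 in the 400 bp before the end was above every gene-side zone farther out. Its interval overlapped that of the adjoining zone, 31.9 (27.6 to 36.7). Eligible bases were not filtered for whether reads can be placed there uniquely. These intervals, like all others here, cover counting error only, and sites are not replicates of the tissue.

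The same dip was present in each library when single bases were counted in place of sites. Within 100 bp of the end, 0.762% of eligible bases in replicate 1 and 1.04% in replicate 2 were listed below the false discovery rate limit of 0.05. In the 400 bp before the end the shares were 1.15% and 1.50%, and in the 400 bp after it 1.15% and 1.53%. Base composition moved with this pattern: GC was 39.1% of eligible bases within 100 bp, 43.2% in the 400 bp before and 44.8% in the 400 bp after, and it was lowest, 35.9%, in the last 100 bp of the gene. When bases and sites were split by the GC of the surrounding 200 bp, a split chosen after the dip was seen, the ratio was 0.966 (0.593 to 1.51; 24 sites within 100 bp) at 40 to 50% GC. It was 0.695 (0.438 to 1.06; 24 sites) at 50% or more. Under 40% GC only 2 sites lay within 100 bp, with a ratio of 0.519 and an interval from 0.0546 to 2.51. All 3 ratios were below 1 and each interval included 1, while the pooled ratio of 0.473 lay within the intervals under 40% and at 50% or more. The part of base composition in the dip was not tested.

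**Figure D1:**
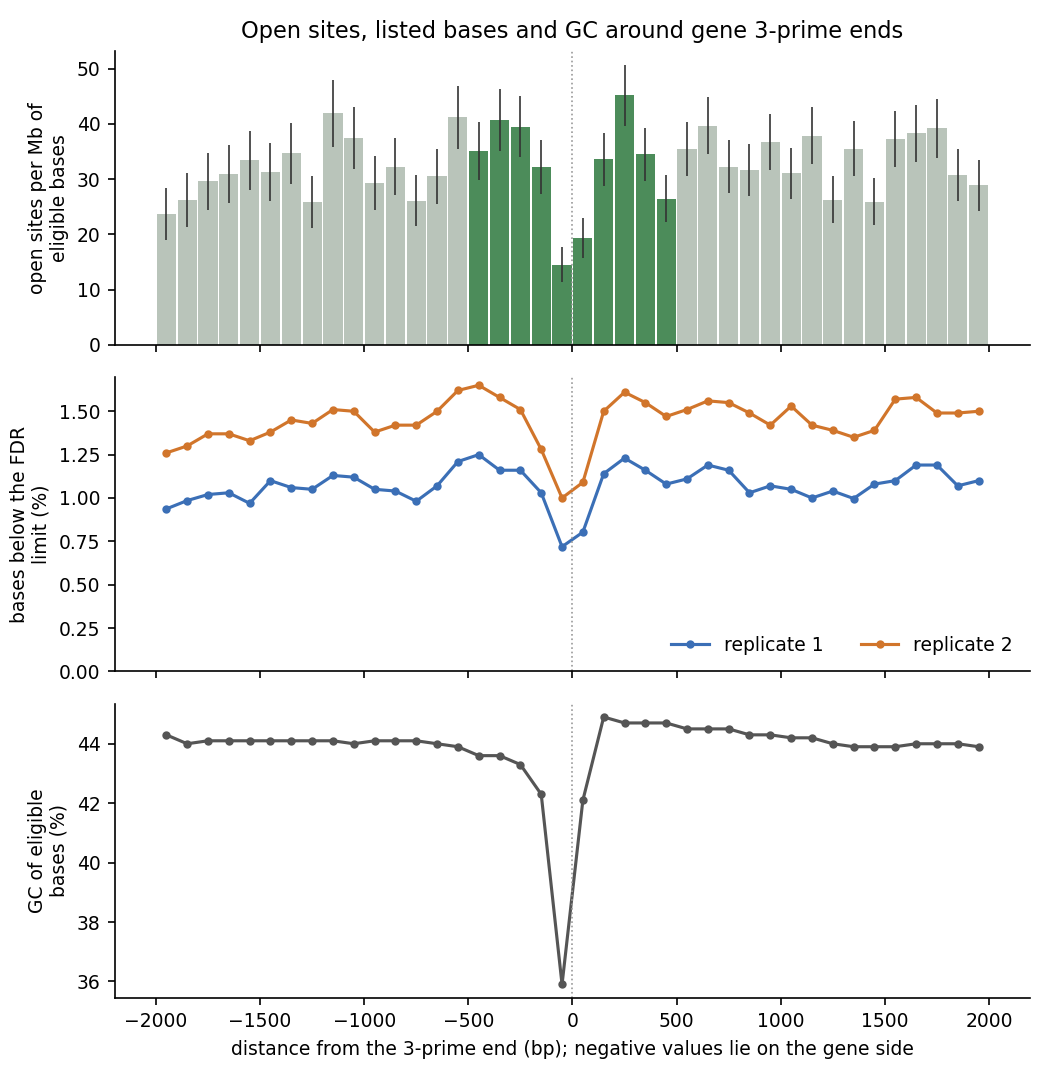
Open sites per Mb of eligible bases (top; lines show the square root of the count), share of eligible bases listed below the false discovery rate limit in each library (middle) and GC of eligible bases (bottom), in bins of 100 bp by distance from the nearest gene 3′ end, with the gene side at negative values. Green bars are the 451 sites; all 3 measures were lowest in the bin just before the end, where there were 14.5 sites per Mb, 0.719% and 1.00% of bases listed, and 35.9% GC.

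The sites fell on both sides of the end. The midpoint was on the gene side, or at the end base itself, in 215 of 451 (47.7%; Wilson interval 43.1 to 52.3), while the 3′ UTR of the same gene held 185 (41.0%). Another 194 (43.0%) were outside annotated genes, 51 (11.3%) in an intron, 13 in an exon of another gene and 8 in another exon of the same gene. Median signal was 0.745 and 0.930 (replicates 1 and 2) in the UTR, 0.782 and 0.938 in introns, and 0.806 and 0.970 outside genes. A CTCF match was present in 25.4% (19.7 to 32.1), 27.5% (17.1 to 40.9) and 27.3% (21.5 to 34.0) of them. In the 21 sites in other exons the medians were 0.812 and 0.946, and 3 (14.3%; 4.98 to 34.6) had a CTCF match. The 50 sites within 100 bp of the end, few as they were, had medians of 0.809 and 0.978, beside 0.776 and 0.938 in the other 401. Lrrc24, a leucine-rich repeat gene, had the strongest of the 50, 75 bp before its end.

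Few of the sites had features of promoters. Only 27 (5.99%; 4.15 to 8.57) had the base composition of a CpG island (GC over 50% and an observed to expected CpG ratio over 0.6 in 200 bp), against 5.30% of the distal sites 500 to 5000 bp away and 64.5% of promoter sites. A transcript start in RefSeq, a second annotation that the rule did not use, lay within 500 bp of 5 sites (1.11%) and within 2000 bp of 19 (4.21%). The shares were 2.82% and 5.92% in the distal sites 500 to 5000 bp away, and 2.31% and 5.28% in all other distal sites. All these sets already exclude sites within 2000 bp of a GENCODE start. The 19 sites at 3′ ends within 2000 bp of a RefSeq start had median signals of 0.951 and 1.26. Repeat-masked sequence made up over 50% of the window in 15 sites (3.33%), beside 2.37% of the distal sites 500 to 5000 bp away and 1.76% of all other distal sites.

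Signal at 3′ ends was close to that of the gene neighbourhood. Signal is the authors' own value for each peak, on a scale with no stated unit, in which every value is a whole multiple of 0.00606 in replicate 1 and of 0.00795 in replicate 2 (within 0.05 of a step for 100% of peaks). In bulk tissue, a site open in fewer cells and a site less open in each cell cannot be told apart. The median site had 128 steps in replicate 1 and 119 in replicate 2, and the lowest had 35 and 26. The 451 sites had a median of 0.776 in replicate 1 (middle 50%, 0.570 to 1.14; range 0.212 to 6.43). In replicate 2 the median was 0.946 (0.668 to 1.42; range 0.207 to 5.58). Distal sites 500 to 5000 bp from a 3′ end had medians of 0.757 and 0.922, so the ratio was 1.02 in replicate 1 and 1.03 in replicate 2. Distal sites over 5000 bp away were lower, at 0.582 and 0.724, with ratios of 1.33 and 1.31. Promoter sites were higher, at 1.27 and 1.52, with ratios of 0.612 and 0.623.

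**Figure D2:**
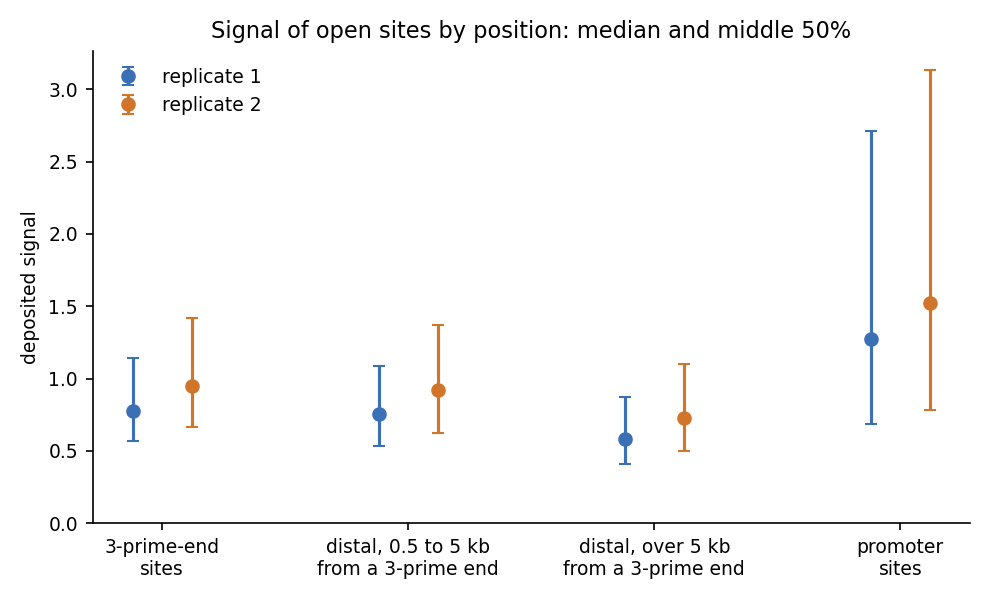
Deposited signal of open sites by position in replicate 1 (blue) and replicate 2 (orange); points are medians and bars span the middle 50% of sites. The 3′-end sites (0.776 and 0.946) sit beside distal sites in the same neighbourhood (0.757 and 0.922), with medians above those of distal sites farther from gene ends and below those of promoter sites.

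The libraries ranked the 451 sites alike, and the deposited signal was mostly higher in replicate 2. The replicate 2 value was that of the highest peak overlapping the replicate 1 peak, which can raise it. In steps the median site was instead higher in replicate 1 (128 against 119), so the direction of the difference depends on the scale. The part of the pairing in it was not tested. Across sites, which share libraries and are not independent replicates, log2 signals in the libraries had a Pearson r of 0.874 and a Spearman rho of 0.844. Replicate 2 was higher at 333 sites (73.8%), with a median log2 difference of 0.25 (middle 50%, -0.01 to 0.55), and 446 sites (98.9%) were within 2-fold of that median. The shift was larger at sites with a CTCF match, where it was 0.46 (0.23 to 0.73) and 105 of 117 sites were higher in replicate 2. Without a match it was 0.18 (-0.06 to 0.42). Median signal with a match was 0.860 in replicate 1 and 1.29 in replicate 2, against 0.751 and 0.875 without. The other distal sites had the same split, with a shift of 0.56 with a match and 0.23 without. The shift between the libraries was thus larger at sites with a match in both sets.

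**Figure D3:**
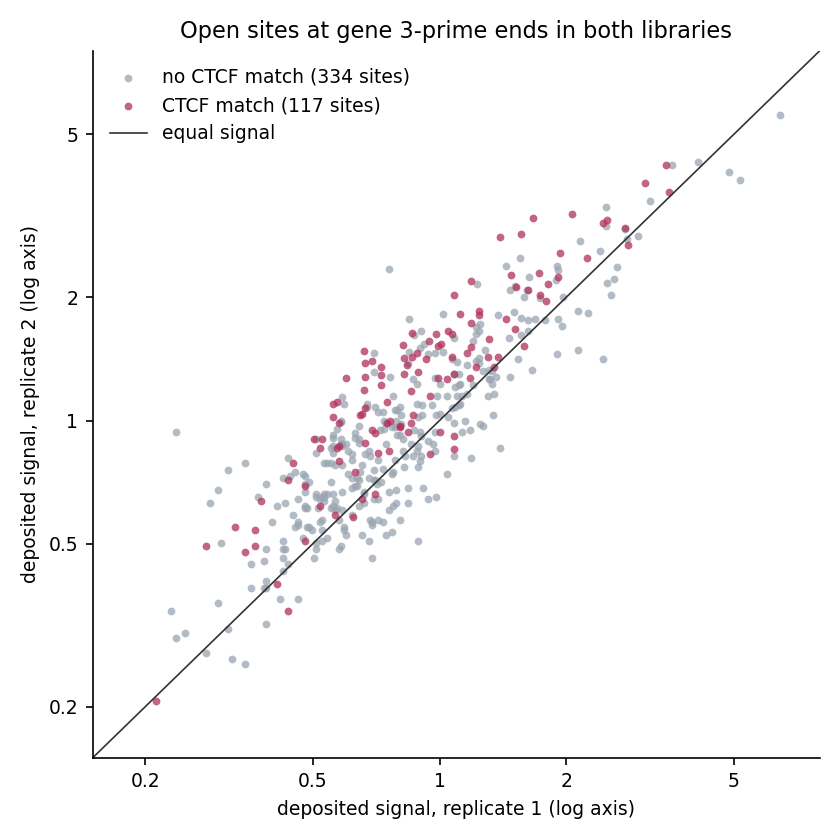
Deposited signal of each of the 451 sites in replicate 1 (horizontal) and replicate 2 (vertical), both on log axes; red points have a CTCF match and the line marks equal signal. Of the 117 red points 105 lie above the line.

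Most of the sites held a footprint. One or more deposited footprints overlapped 418 sites (92.7%) in replicate 1 and 396 (87.8%) in replicate 2. Both libraries had one at 376 (83.4%; 79.7 to 86.5), beside 81.3% of the distal sites 500 to 5000 bp away (difference 2.05 percentage points, Newcombe interval -1.87 to 5.46) and 74.1% of all other distal sites (difference 9.32 points, 5.58 to 12.5). Footprints follow signal in these files: all 37 sites with a mean signal of 2 or more had a footprint in both libraries, and 16 of the 40 sites under 0.5 did. Neither library had one at 13 sites (2.88%), whose median signal was 0.436 and 0.628. Among the 13 was the site of Jarid2, a subunit of Polycomb repressive complex 2. The authors' stricter peak list held 54.1% of the 451 sites in both libraries, beside 54.0% of the distal sites 500 to 5000 bp away (difference 0.102 points, -4.79 to 4.93).

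CTCF matches were more frequent at 3′ ends than at remote sites, and no excess over other sites near the ends was detected. With up to 1 mismatch to the 14-base consensus on either strand of the central 200 bp, 117 of 451 sites (25.9%; 22.1 to 30.2) had a match. The share was 15.3% in all other distal sites (difference 10.6 points, 6.75 to 14.8), 14.3% over 5000 bp from a 3′ end and 7.41% in promoter sites. At 500 to 5000 bp from a 3′ end it was 28.3%, and the difference of -2.40 points had an interval of -6.51 to 2.08. The consensus written backwards was found in 0.443% of the sites. It holds a fixed CG pair that the consensus itself does not require. The median observed to expected CpG ratio of the sites was 0.255, so this share does not measure the matches due to base composition. Sites on the gene side had a match in 25.6% and those downstream in 26.3% (difference 0.690 points, -7.42 to 8.71). Of the 117 matches, 98 (83.8%) lay under a footprint in both libraries, near the 85.0% of distal sites 500 to 5000 bp away. The match was on the strand of the gene in 69 (59.0%; 49.9 to 67.5), beside 53.9% of those neighbouring sites (50.8 to 56.9) and 49.4% of all other distal sites (48.3 to 50.5). Among the 37 strongest sites 15 had a match.

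Among the other 15 motifs, only the poly(A) signal had a difference from distal sites 500 to 5000 bp away whose interval did not include 0. All but the poly(A) signal were searched on both strands of the central 200 bp. SP/KLF (GGGGCGG) was in 5.99% of the sites (27), beside 2.52% of all other distal sites (difference 3.47 points, 1.63 to 6.06) and 4.20% at 500 to 5000 bp (1.79 points, -0.183 to 4.44). The E-box CAGATG, bound by neuronal bHLH factors, was less frequent, in 27.3% against 33.8% of all other distal sites (-6.57 points, -10.5 to -2.26), and 28.1% of the neighbouring ones (-0.840 points, -5.02 to 3.69). ROR (AGGTCA) was in 8.87% against 6.50% and 8.51%. AP-1 (TGANTCA), the motif of Fos and Jun proteins, was in 9.98%, against 12.7% and 10.2%. E-box CAGCTG was in 21.7%, against 21.8% and 21.1%. MAZ (GGGGAGGG), which can overlap SP/KLF in G-rich runs, was in 4.21% (3.35% and 4.34%), and RFX, with up to 3 mismatches, in 3.10% (4.61% and 3.69%). NFI, with up to 1 mismatch, was in 1.77% and MEF2 in 1.55%, while NRF1 (GCATGCGC), YY1 (AAGATGGC) and ETS (CCGGAAGT) were in 4, 3 and 1 sites. EGR (GCGTGGGCG) and CRE (TGACGTCA) were in 0 of 451, which allows a share of up to 0.665% by the limit of 3 counts (Wilson upper bound 0.845%), with 0.151% and 0.371% in all other distal sites.

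The poly(A) signal AATAAA was searched on the strand of the gene only. It was in 43 sites (9.53%; 7.16 to 12.6), in 6.61% of all other distal sites (difference 2.92 points, 0.533 to 5.99) and in 4.42% at 500 to 5000 bp (5.11 points, 2.62 to 8.24). Windows that reach the end of the gene can hold the gene's own signal. A match to any of the motifs is a description of letters and not of binding.

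**Figure D4:**
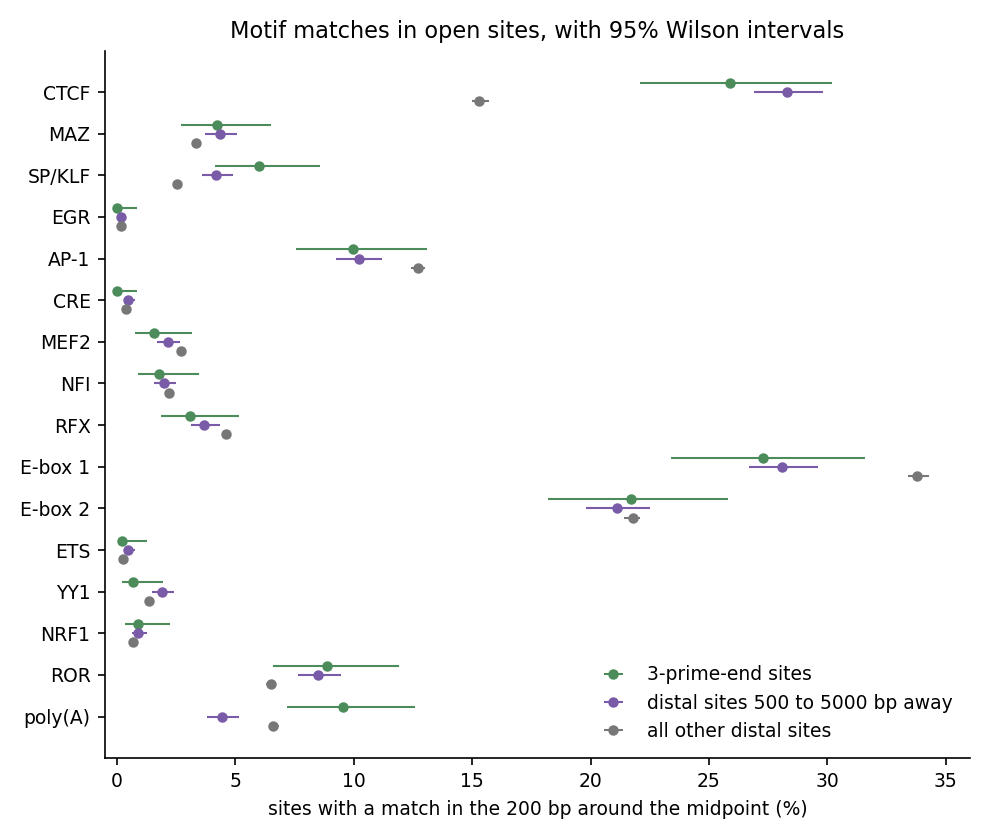
Share of sites with a match to each of 16 motifs in the central 200 bp, with 95% Wilson intervals, for the 451 sites at 3′ ends (green), distal sites 500 to 5000 bp away (purple) and all other distal sites (grey); E-box 1 is CAGATG, E-box 2 is CAGCTG, and the poly(A) signal was searched on the gene's strand. Green and purple lie together for CTCF (25.9% and 28.3%) and apart for the poly(A) signal (9.53% and 4.42%).

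Of the 20807 protein-coding genes on chromosomes 1 to 19, 476 had such a site at their 3′ end. Shares were counted among the 15193 genes whose end is over 2000 bp from every start, of which 466 had one (3.07%, interval 2.80 to 3.35). The other 10 genes with a site end within 2000 bp of a start and were left out of the shares. Neighbouring genes share sites. A single site on chromosome 18, 266 bp beyond the common end of the gamma-protocadherin cluster, whose members specify neuronal cell identity, counted for 21 genes (signal 1.35 and 1.16). Without these the share was 2.93%. In 4 equal groups by gene length, from the shortest to the longest, the share was 2.63% (2.17 to 3.19), 3.26% (2.75 to 3.88), 3.74% (3.18 to 4.39) and 2.63% (2.17 to 3.19).

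Genes that end near the end of a neighbour on the opposite strand more often had a site. Of 1219 genes that face another 3′ end within 2000 bp downstream, 69 had one (5.66%), against 397 of 13974 others (2.84%; difference 2.82 points, 1.62 to 4.29). There, 1 site can count for both genes. In all, 19 sites had 2 or more gene ends within 500 bp. Examples are a site between Dnm1, the dynamin of synaptic vesicle recycling, and Golga2 (1.07 and 1.63), and a site at Map1lc3b, an autophagosome protein, and Zcchc14 (1.35 in both). The 19 had medians of 1.07 and 1.16, all had footprints in both libraries, and 7 had a CTCF match.

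Genes with a 3′-end site mostly had an open promoter, as most genes did. A peak in both libraries within 500 bp of a start of the same gene was present for 311 of 466 (66.7%; 62.3 to 70.9), against 62.1% of the genes without a site and 62.3% of all 15193. The difference of 4.62 points had an interval of 0.153 to 8.82. Only 4 of the 21 gamma-protocadherin genes had such a promoter peak, and without these genes the share was 69.0%, with a difference of 6.87 points (2.36 to 11.1). At 155 genes a 3′-end site was present with no promoter peak in both libraries.

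Lists of genes were used to look for groups of known function, and each was small against a background of 3.07%. As a check of the labelled tissue, promoters open in both libraries were counted first: 37 of 39 for neuronal and glutamatergic genes, 26 of 34 for hippocampal field genes, 18 of 20 for astrocyte genes and 20 of 24 for oligodendrocyte genes. All genes of the housekeeping (18), 3′ end processing and termination (27) and activity-induced (30) lists had one, and the share over the 15193 genes above was 62.3%. These list counts include genes whose end lies within 2000 bp of a start, which the 15193 leave out. The counts were 4 of 19 for microglia, 4 of 20 for endothelial and mural cells, 11 of 24 for GABAergic interneurons and 3 of 19 for liver. At 3′ ends the counts were far lower. The neuronal list had 1 site among the 29 genes counted, at Vamp2, a vesicle fusion protein (1.66 and 1.33). Its member Shank1, which was not counted, had a site too. The activity-induced list had 2 of 22, at the transcription factor genes Egr4 (1.05 and 1.65) and Junb (0.794 and 0.922). The Junb site lies in an exon of another gene and is also within 500 bp of the end of Prdx2. The hippocampal field list had 1 of 31, at the kainate receptor gene Grik4 (0.527 and 0.509). The astrocyte list had 2 of 14, among them Acsbg1, an acyl-CoA synthetase gene (0.509 and 0.660). The Acsbg1 site is also within 500 bp of the end of Idh3a.

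No site was found for interneuron (23 genes counted), oligodendrocyte (21), microglia (17), endothelial and mural (15), housekeeping (11), 3′ end processing and termination (22) or liver genes (18). With counts this small, the upper Wilson bounds of these 7 lists run from 14.3% to 25.9%, all above the background. Some families defined by their symbols were large enough to set beside it. Olfactory receptor genes, mostly silent outside the nose, had 2 sites among 681 genes (0.294%; 0.0806 to 1.06), and genes named Zfp had 5 of 323 (1.55%; 0.663 to 3.57). Solute carriers (Slc) had 11 of 286 (3.85%; 2.16 to 6.75). Cytosolic ribosomal protein genes, with 0 of 15, were too few for this (upper Wilson bound 20.4%).

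The highest signal was at Fam120a, an RNA-binding scaffold gene on chromosome 13, with 6.43 in replicate 1 and 5.58 in replicate 2 (6.01 ± 0.60, SD, n = 2), in a peak of only 60 bp (chr13:48878741-48878800) whose midpoint is 448 bp beyond the gene and outside annotated genes. Dnajb12, which encodes a co-chaperone of the endoplasmic reticulum, had 5.18 and 3.87 (4.53 ± 0.92) at chr10:59899621-59899980, 499 bp beyond its end, 1 bp inside the limit. Lrrc24 had 4.87 and 4.04 (4.46 ± 0.59) at chr15:76715221-76715480, in its 3′ UTR. All 3 were higher in replicate 1, against the trend of the deposited values in the whole set.

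A site at chr7:44360001-44360360 in the 3′ UTR of 1700008O03Rik had 4.12 and 4.29 (4.21 ± 0.12) with 8 footprints in each library. It is also within 500 bp of the end of Shank1, a scaffold gene of the postsynaptic density, but that end is within 2000 bp of a start, so Shank1 was not among the genes counted. Rtn2, a reticulon that shapes the endoplasmic reticulum, followed with 3.56 and 4.21 (3.88 ± 0.46) at chr7:19295881-19296080, in its 3′ UTR. Thbs4, a matrix thrombospondin, had 3.45 and 4.20 (3.83 ± 0.53) at chr13:92751801-92752040. The next were 1700029H14Rik (3.56 ± 0.076), Dand5, a secreted antagonist of Nodal and BMP (3.43 ± 0.52), and Angel1 (3.30 ± 0.18). Then came Prss22, a serine protease (2.90 ± 0.59), Fbxo2, an F-box protein for glycoproteins (2.89 ± 0.095), and Acvrl1, a TGF-beta family receptor (2.85 ± 0.15; SD, n = 2 for each). Of these 12 sites 4 have a CTCF match, those of Thbs4, 1700029H14Rik, Dand5 and Acvrl1, whose sequences are printed above.

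At the other end of the range were Gm8113 (0.212 and 0.207), the olfactory receptor gene Olfr789 (0.236 and 0.294) and Sptssb, a subunit of serine palmitoyltransferase (0.279 and 0.270). None of the 3 was in the stricter lists, and repeat-masked bases made up 51.0% of the Olfr789 window and 42.0% of that of Gm8113. The strongest and the weakest of the named sites differed far more than the libraries did at any of them. That gap is set by picking the extremes of the same values, so it is no measure of how well the libraries agree.

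**Figure D5:**
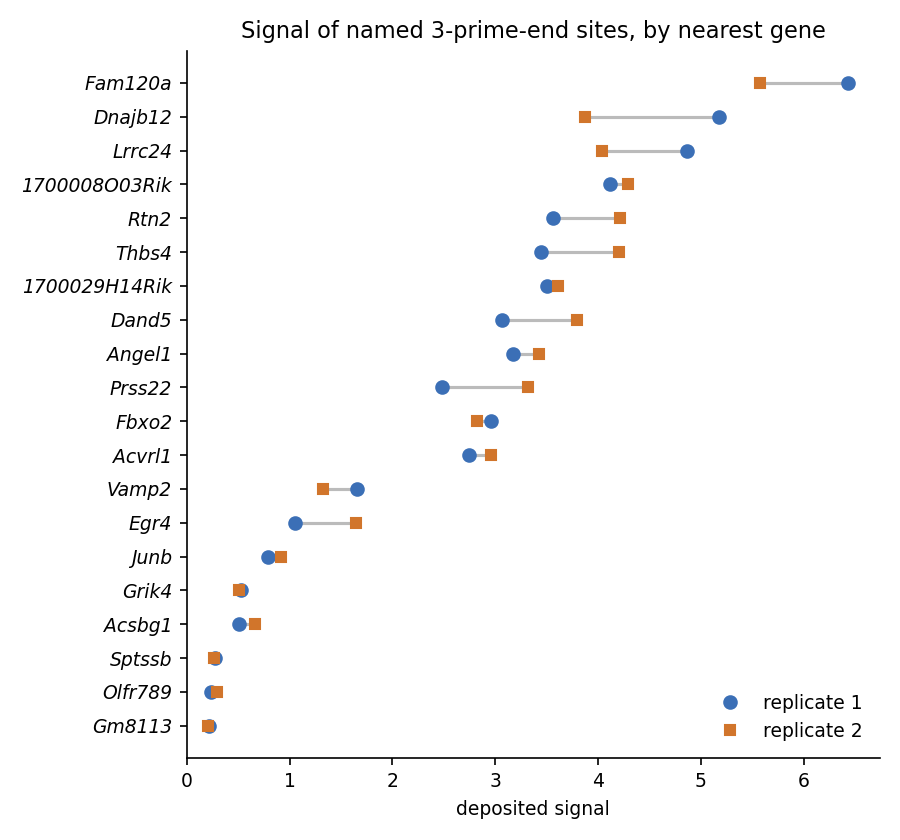
Deposited signal in replicate 1 (circles) and replicate 2 (squares) of the 12 strongest sites, of sites at listed genes and of the 3 weakest sites, labelled by the gene with the nearest 3′ end. Values run from 6.43 and 5.58 at Fam120a to 0.212 and 0.207 at Gm8113, a range set by picking the strongest and weakest sites, and lines join the libraries.

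Most sites were narrow, with a median width of 200 bp. The widest were at Shf, an adaptor protein gene (520 bp; 1.47 and 2.08), 1700023F06Rik with Fmnl1 (500 bp; 1.51 and 2.13) and Capn11, a calpain (500 bp; 0.848 and 1.47), each higher in replicate 2. The nearest end had 2 or more sites at 13 genes. Peaks were counted as listed and not merged, so such sites need not be separate stretches. At Cpxm2, the peak chr7:132032181-132032380 lies wholly inside chr7:132032041-132032500, and both carry 0.779 in replicate 2. Thbs4 had a second one 399 bp beyond its end (1.56 and 1.62). The agouti gene a, a pigment signal, had sites 191 bp before (2.75 and 2.94) and 109 bp beyond (1.11 and 1.30). P2rx1, an ATP-gated ion channel, had sites 289 bp before (1.62 and 1.65) and 41 bp beyond (1.24 and 1.65), which adjoin and lie within 1132 and 802 bp of a RefSeq start.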

How the data were processed

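The members and the gene and motif lists were chosen with earlier results of these data known. Every library comes with 2 deposited peak lists with a signal value per peak (never negative, unit not stated), footprints, and base intervals with a false discovery rate, a q-value type of p-value that was under 0.05 for every interval. The authors made them from each library separately on mm10, per the notes that came with the files; aligner and peak caller are not given in the sources used. The larger list of each library was used, with peaks counted as listed and not merged. Reads behind a site are not known from these files, so precision was given as intervals on counts of sites (Wilson, Newcombe, exact Poisson, exact binomial, at 95%).

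Sites were placed on GENCODE M21 with Python 3.11.15 and scipy 1.17.1; motifs were searched in the mm10 reference. With 1 group of 2 libraries no test was run. Placement, motif search and densities were tested on simulated data with planted sites. The text names the 12 strongest and 3 weakest sites, the 2 strongest per curated list, the 3 widest, up to 3 genes with 2 or more sites, and those next to each limit; other names were chosen after their values were seen, and 1 named site is not reported here. Alternatives covered peak lists, overlap, distances, single libraries and match rules.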

Additional observations from a re-analysis of the deposited data

How the results depend on the processing

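The number of sites follows the limits: 243 with the stricter peak lists, 199 within 250 bp, 903 within 1000 bp and 281 at more than 5000 bp from starts. From 1 library alone, by position, it was 596 to 762. The share of genes with a site was 1.59%, 2.55%, 1.30% and 5.79% with stricter lists, reciprocal overlap of 0.5, 250 bp and 1000 bp, and 3.78 to 4.97% from 1 library. Signal relative to all other distal sites moved from 1.29 (mean of the libraries' ratios) to 1.27 with stricter lists, 1.27 with reciprocal overlap, 1.25 within 250 bp, 1.27 within 1000 bp and 1.22 at more than 5000 bp from starts, and was 1.25 to 1.33 from 1 library. Against distal sites 500 to 5000 bp away it was 1.02. An exact CTCF match was found in 11.3%, beside 5.40% of all other distal sites and 10.5% of those 500 to 5000 bp away. With up to 1 mismatch, 1 library alone gave 21.3 to 24.3%. Footprints in both libraries reached 92.6% with stricter lists and 90.0% with reciprocal overlap. From 1 library, whose peaks need not be shared, only that library's own footprints were counted. Their share was 85.4% in replicate 1 and 80.4% in replicate 2, beside 92.7% and 87.8% of the 451 sites. The gene-side share was 45.8 to 46.0% from 1 library. An open promoter was found for 71.2% of genes with a site with a 2000 bp window (66.3% of other genes) and 57.7% with stricter lists (56.2%). The density ratio at the end was 0.489 to 0.614 from 1 library, but 0.966 and 0.695 in windows of 40 to 50% and of 50% GC or more.

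Of 79 alternative values, 52 stayed within 1.5 times (number of sites) or within the interval or library spread of the value reported. A change of direction was defined only for the signal ratio and the density ratio, as crossing 1, and 0 of their values did so. Leaving out sites near RefSeq starts, repeat-masked sites and the gamma-protocadherin genes, and the GC split and every alternative for the density ratio, were added after seeing the data. The cause of the other changes was not tested. No paired analysis was possible because the libraries form 1 group. Depth was not known, the tissue mixes cell types, and reads of an F1 cross were placed on 1 reference, whose effect on these sites was not tested.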
